A study of Homo sapiens with 24 samples.

Results

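The genes of 10 amino acid transporters of the plasma membrane were followed through every group of the series. They are SLC7A5, SLC3A2, SLC43A1, SLC7A1, SLC7A3, SLC38A1, SLC38A2, SLC1A4, SLC1A5 and SLC6A9. They were chosen by name, with earlier results of these data known, and are 10 of the 26485 genes in the deposited count table. Counts of these genes called are therefore a description of the set. The 24 libraries, 3 for each of 8 groups, come from SH-SY5Y, an established line of human neuroblastoma cells. Untreated cells and cells given copper chloride were harvested at 4 h. At 24 h the groups were untreated cells and cells given Dextran-Catechin (DC), the polyamine TEPA, interferon gamma (IFN), DC with IFN, or TEPA with IFN. Both DC and TEPA chelate copper. The doses are not in the labels. All groups share 1 cell line, and nothing in the labels says that the 3 libraries of a group came from separate cultures, so p-values measure only the spread between these libraries.

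Amino acid transporters set how much of each amino acid a cell can take up, exchange or export. SLC7A5 is the light chain of LAT1, which exchanges large neutral amino acids such as leucine, and it reaches the membrane only in a heterodimer with the heavy chain SLC3A2. Many of these genes are known targets of ATF4, the transcription factor made when phosphorylation of eIF2 alpha slows general translation, and ATF4 binds with C/EBP partners to composite elements near their start sites. In neuroblastoma, the transporter of glutamine and other neutral amino acids SLC1A5 is known as a MYCN-regulated gene.

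Because that element is the known route to several of these genes, the letters TGATGNAAN were searched on both strands in RefSeq promoter windows of 300 bases (250 before to 50 after each start, build GRCh38.p14). Windows were found for 9 of the 10 genes, 16 windows in all. The letters occurred in 5 of the 16 windows (31.2%), against 3.61% of all 35116 windows, and each of the 5 belonged to a different gene. The shorter form TGATGCAA, which overlaps it, was in 2 of the 16 windows and in 0.866% of all windows. The palindrome TGACGTCA was in 0 of the 16 and in 1.85% of all windows. The 5 matches are shown with their flanks, 5′ to 3′ on the strand of the gene, capitals marking the match; a match is a description of letters and not a binding site.
SLC3A2: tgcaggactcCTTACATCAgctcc
SLC7A1: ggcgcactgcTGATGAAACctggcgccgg
SLC38A1: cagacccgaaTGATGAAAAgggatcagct
SLC1A4: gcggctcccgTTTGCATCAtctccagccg
SLC1A5: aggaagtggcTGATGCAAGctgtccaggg
The SLC3A2 stretch lies at chr11:62881725-62881748 on the plus strand and the SLC1A4 stretch at chr2:64989381-64989409 on the plus strand, and in both the letters read on the opposite strand. The SLC7A1 stretch is at chr13:29595663-29595691, that of SLC38A1 at chr12:46266502-46266530 and that of SLC1A5 at chr19:46784893-46784921, all on the minus strand. Counted from the annotated start as base 1, the first base of the match is at 37 in SLC3A2, 8 in SLC7A1, -4 in SLC38A1, -8 in SLC1A4 and -97 in SLC1A5.

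Library totals ran from 24569980 to 35372442 counts. Of the 8 adrenergic neuroblastoma markers, 7 averaged over 1 CPM (counts scaled to a common library total) and their sum was between 1205 and 1646 CPM in every library, while TH was between 0 and 0.0359 CPM. Markers of leukocytes summed to between 0.0918 and 0.862 CPM with CD3E at 0, and those of epithelium to between 0.254 and 0.772 CPM with KRT5 at 0. Markers of Schwann cells summed to between 2.71 and 4.13 CPM. In the fibroblast and endothelium list 5 of 7 genes averaged over 1 CPM and the sum ran from 455 to 713 CPM, with COL3A1 between 252.5 and 399.8 CPM and the endothelial markers PECAM1 and CDH5 at or under 0.0368 CPM. Libraries also differed in how GC-rich and GC-poor genes were represented. The GC difference of a library, the median log2 level of genes with a transcript GC fraction over 0.6 minus that of genes under 0.4, each relative to the mean of all libraries, ran from -1.34 to 1.37 and differed both within and between groups. Each comparison is therefore given from the fit of the counts and again with a smooth trend on GC content removed from every library. In bulk libraries such as these, fewer cells expressing a gene and less RNA per cell cannot be told apart.

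In untreated cells at 24 h the system A carriers SLC38A2 and SLC38A1 led. Scaled by transcript length, SLC38A2 stood at 87.2 ± 4.22 CPM per kb (SD, n = 3) and SLC38A1 at 72.0 ± 4.12, carriers of glutamine and other small neutral amino acids. SLC7A1, the carrier of arginine and lysine known as CAT1, followed at 17.5 ± 0.667 CPM per kb. SLC1A5 at 12.8 ± 3.61 and SLC3A2 at 10.3 ± 1.33 CPM per kb overlapped in their libraries. SLC1A4, a carrier of alanine, serine and cysteine, stood at 7.40 ± 0.591 CPM per kb and SLC7A5 at 2.52 ± 0.659. The lowest were SLC43A1 (LAT3, a carrier of branched-chain amino acids) at 0.661 ± 0.0771, the glycine transporter SLC6A9 at 0.193 ± 0.104 and SLC7A3 (CAT3) at 0.00501 ± 0.00867 CPM per kb. Apart from SLC1A5 and SLC3A2, no neighbours in this order overlapped in the 3 libraries.

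**Figure D1:**
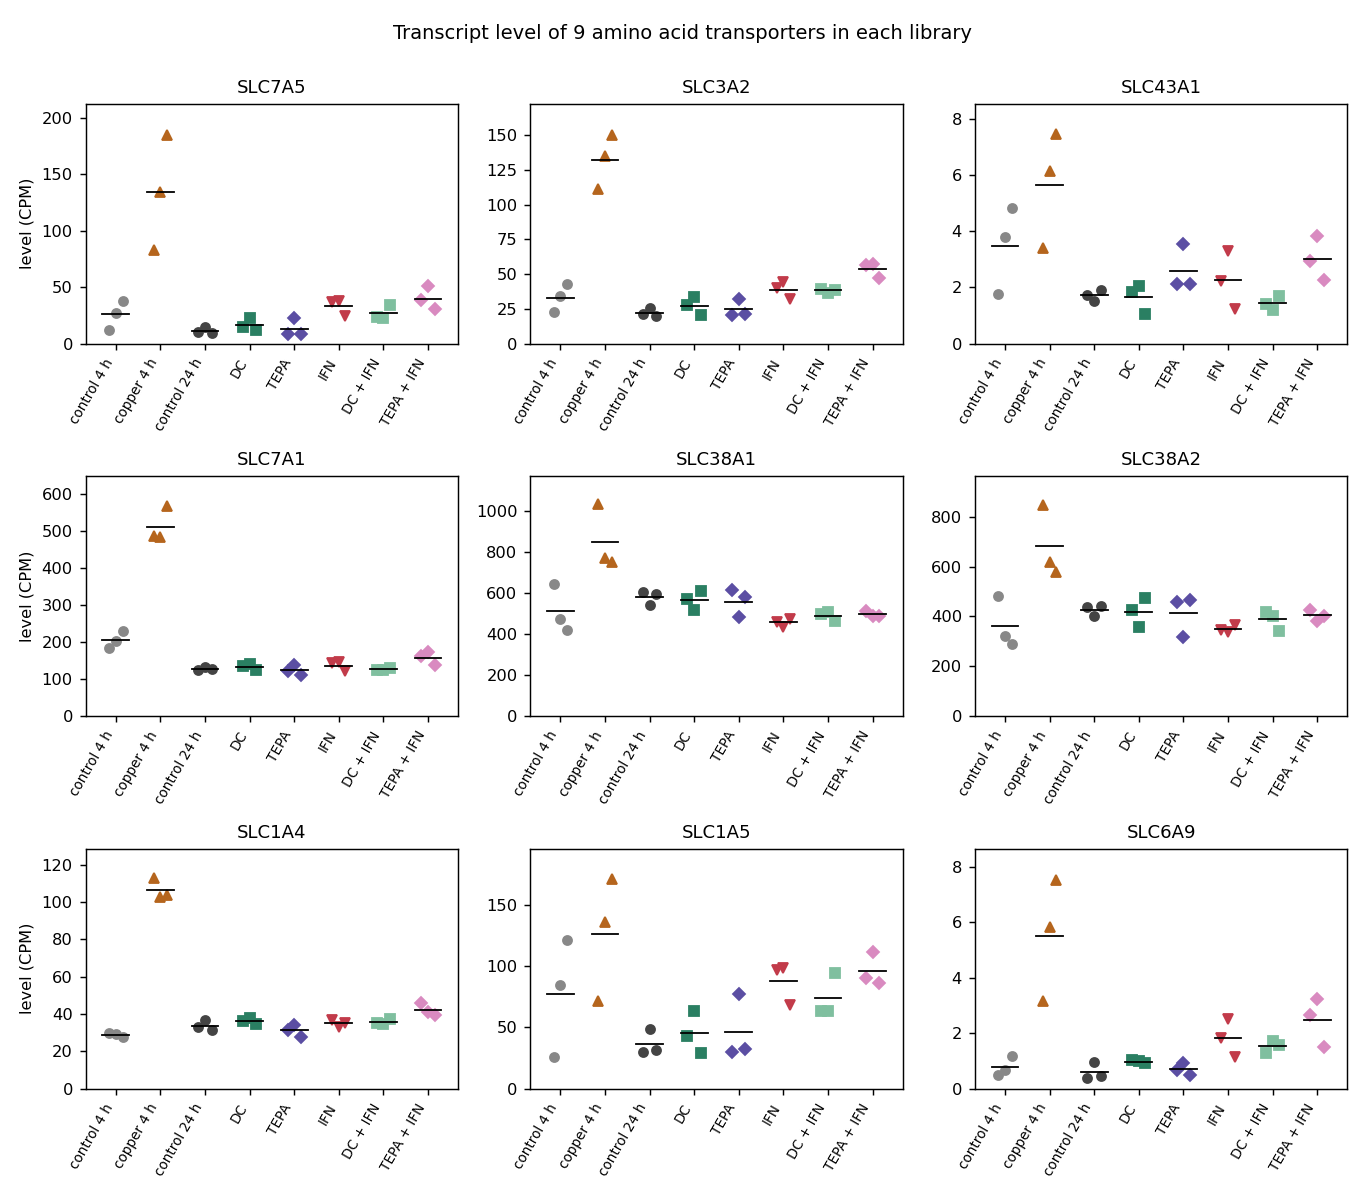
Level in CPM (linear axis from 0) of 9 transporters in each of the 24 libraries; points are libraries, coloured by group, and the bar is the mean of 3. The copper libraries lie above all 21 others for SLC7A5, SLC3A2, SLC7A1, SLC38A1, SLC38A2 and SLC1A4.

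Copper for 4 h was followed by higher transcript levels across this set: 7 of the 9 genes tested rose and none fell (edgeR quasi-likelihood test, Benjamini-Hochberg adjusted p under 0.05), where 5.85% of all genes tested were called, 2.65% as higher. The 7 were SLC6A9, SLC7A5, SLC3A2, SLC1A4, SLC7A1, SLC38A2 and SLC38A1. The median log2 fold change over the 9 was 1.32, against -0.02 over all genes. In 7 of the 9 the 3 copper libraries lay above the 3 control libraries without overlap, as did 5.88% of all genes tested. In 6 of the 9 they lay above all 21 other libraries, as did 2.5% of genes. The tenth gene, SLC7A3, had too few counts to be tested.

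Both chains of LAT1 rose. SLC7A5 (chromosome 16, 87830023 to 87869488, minus strand, GRCh38) was at 12.4, 27.0 and 38.2 CPM in the control libraries and at 83.2, 134.4 and 184.2 CPM with copper. The groups did not overlap, although each spread more than 2-fold. The log2 fold change was 2.37 (SE 0.43, adjusted p = 0.00157, edgeR), and within the 3 same-numbered pairs it was 2.74, 2.32 and 2.27. SLC3A2 (chromosome 11, 62856102 to 62888875, plus strand) was at 22.5, 34.1 and 42.8 CPM without copper and at 111.1, 134.7 and 150.5 CPM with it, again without overlap. Its log2 fold change was 1.99 (SE 0.23, adjusted p = 7.95e-06, edgeR).

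Relative to its partner, SLC7A5 was the scarcer transcript per kb in every group. The log2 ratio of SLC7A5 to SLC3A2 per kb was -1.52 ± 0.36 in the 4 h control and -1.11 ± 0.36 with copper (SD, n = 3). It was -2.05 ± 0.18 in the 24 h control, -1.82 ± 0.17 with DC, -2.10 ± 0.47 with TEPA and -1.32 ± 0.14 with IFN. With DC and IFN it was -1.60 ± 0.31, and with TEPA and IFN -1.52 ± 0.25. These ratios were not tested, and the mature SLC7A5 transcript is the richer in GC (61.1% against 58.1%).

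The third carrier of large neutral amino acids, SLC43A1, works without a heavy chain. It was at 1.77, 3.81 and 4.83 CPM in the control and 3.39, 6.13 and 7.45 CPM with copper, so the groups overlapped. Its log2 fold change was 0.70 (SE 0.38) and did not pass the test (adjusted p = 0.408, edgeR).

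SLC7A1, which imports arginine and lysine, was at 183.4, 203.6 and 229.5 CPM in the control and 485.6, 484.4 and 566.9 CPM with copper. The groups lay far apart relative to their spread, and the fitted log2 difference was 1.32 (SE 0.11, adjusted p = 7.87e-08, edgeR). The related arginine carrier SLC7A3 had 0 counts in the 3 control libraries and 8 in the 3 copper libraries, with 4 counts in the other groups together. Set against a limit of 3 counts over the control group, its level with copper was 2.62-fold higher. The 8 copper counts were taken without their own counting error, so this is not a lower bound, and it was not tested.

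Among the sodium-coupled carriers of small neutral amino acids, SLC1A4 moved most evenly in CPM. It stood at 29.9, 29.3 and 27.7 CPM in the control libraries and 112.7, 102.9 and 103.7 CPM with copper. The log2 fold change was 1.88 (SE 0.09, adjusted p = 7.32e-11, edgeR), the smallest standard error of the 9 in this fit. With GC trends removed its SE was 0.107, against 0.037 for SLC38A1, 0.049 for SLC38A2 and 0.057 for SLC7A1. SLC38A2 (SNAT2) was at 480.1, 321.3 and 288.1 CPM in the control and 847.2, 618.4 and 580.2 CPM with copper, which the fit put at 0.91 on the log2 scale (SE 0.18, adjusted p = 0.00307, edgeR). SLC38A1 (SNAT1) was at 645.6, 475.4 and 422.0 CPM in the control and 1034, 769.9 and 750.3 CPM with copper, which the fit put at 0.73 on the log2 scale (SE 0.14, adjusted p = 0.00211, edgeR). Both were already abundant, and in both the library numbered 1 was the highest of its group.

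SLC1A5 (ASCT2) did not pass the test. Its control libraries held 26.2, 84.3 and 121.1 CPM and its copper libraries 71.6, 135.6 and 170.8 CPM, so the groups overlapped and the library numbered 1 was the lowest of each. The log2 fold change was 0.71 (SE 0.45, adjusted p = 0.518, edgeR), and copper was higher in all 3 same-numbered pairs, by 1.45, 0.69 and 0.50.

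Of the 9 genes tested, the one with the largest fold had a low level. SLC6A9, the glycine transporter GLYT1, was at 0.493, 0.662 and 1.18 CPM in the control and at 3.14, 5.82 and 7.51 CPM with copper. The groups did not overlap, and the log2 fold change was 2.80 (SE 0.42, adjusted p = 0.000252, edgeR). Part of it overlaps CCDC24 on the opposite strand (5 to 58 counts), and the strand setting of the counting is not given in the sources used here, so a share of reads could belong to either gene.

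With GC trends removed, all 9 tested genes rose with copper, where 21.4% of all genes were called. SLC1A5 then had a log2 fold change of 0.69 (adjusted p = 9.88e-05) and SLC43A1 one of 0.65 (adjusted p = 0.0149), both from edgeR. The folds themselves moved little, from 2.37 to 2.29 for SLC7A5, from 1.99 to 1.95 for SLC3A2 and from 2.80 to 2.73 for SLC6A9. On this scale the copper libraries of all 9 genes lay above all 21 other libraries, as did 6.79% of genes. The libraries numbered 1 had the lowest GC difference of both groups, -1.34 in the control and -0.65 with copper; the other control libraries were at 0.65 and 1.37 and the other copper libraries at 0.80 and 1.34. A fit of the 6 libraries alone called only SLC1A4 and SLC7A1. With the replicate number as a block, that fit called all 9, including SLC1A5 (adjusted p = 0.0105, edgeR) and SLC43A1 (adjusted p = 0.0101, edgeR). The GC difference spread most in the 4 h control (SD 1.40) and with copper (SD 1.03), against 0.306 in the 24 h control. The main fit estimates the spread of a gene from all groups together. Why the fits differ in their calls was not tested.

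**Figure D2:**
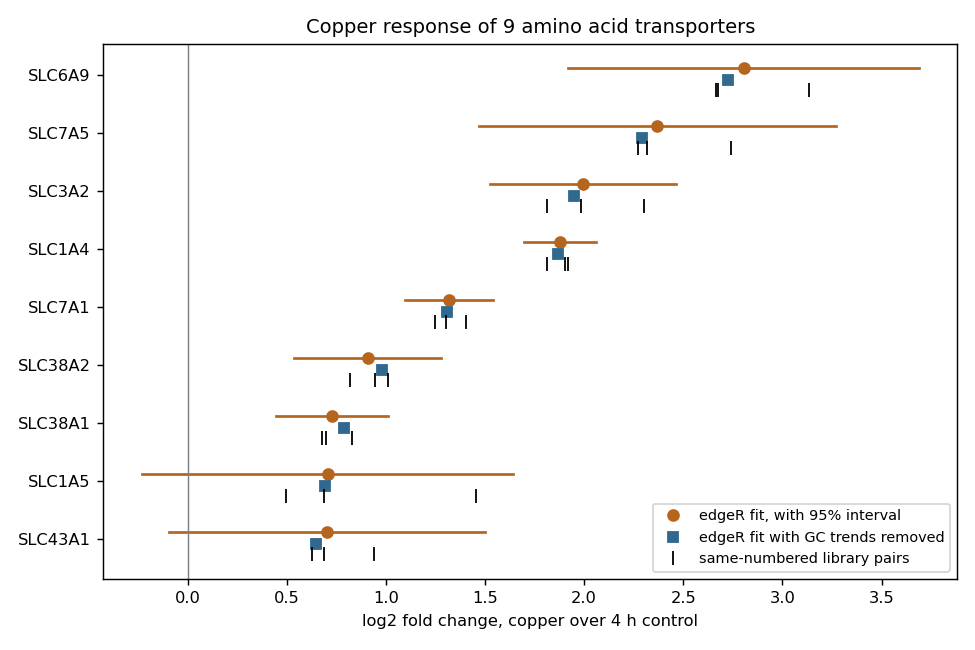
Log2 fold change, copper over the 4 h control, of 9 transporters: circles with 95% intervals from the edgeR fit, squares from the fit with GC trends removed, ticks for the 3 same-numbered pairs of libraries. The intervals of SLC1A5 and SLC43A1 reach below 0, and every pair of every gene lies above 0.

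Other genes of amino acid supply, taken from lists of related genes, differed from list to list, where 5.85% of all genes were called with copper and 21.4% with GC trends removed. Of 10 other plasma membrane amino acid transporters tested, only SLC7A11 rose, the cystine carrier that also pairs with SLC3A2, by 3.59 on the log2 scale (SE 0.23, adjusted p = 9.77e-09, edgeR). None of 8 lysosomal and vesicular transporters was called. Of 10 mitochondrial carriers, the glycine carrier SLC25A38 rose by 0.59 and SLC25A44, a carrier of branched-chain amino acids, fell by 0.31 on the log2 scale. Of 18 genes of nonessential amino acid synthesis 8 rose and 1 fell, and their median log2 fold change was 0.85, against -0.10 for the other plasma membrane transporters and -0.02 for all genes. PSPH and PSAT1, enzymes of serine synthesis, rose by 1.62 and 1.64, asparagine synthetase ASNS by 1.96 and the aspartate aminotransferase GOT1 by 0.89. Glutamine synthetase GLUL, the exception, fell by 0.63. With GC trends removed, 2 of the other plasma membrane transporters rose and 1 fell, 1 lysosomal and vesicular transporter rose and 2 fell, and 1 mitochondrial carrier rose and 3 fell. Of the synthesis genes 11 then rose and 2 fell.

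In the list of eIF2 alpha kinases and the ATF4 network 8 of 20 rose and none fell, with a median of 0.20. ATF4 itself rose by 1.41 on the log2 scale (SE 0.11, adjusted p = 4.65e-08, edgeR), and its targets ATF3, DDIT3 and TRIB3 had 3.30, 2.99 and 2.74. None of the 4 kinases EIF2AK1 to EIF2AK4 was called. Of 24 tested genes of amino acid sensing by mTORC1, the inhibitors DDIT4 and SESN2 rose, by 4.41 and 3.87 on the log2 scale. After removal of GC trends, 10 genes of the ATF4 list rose and 2 fell, and 2 of the mTORC1 list rose and 2 fell.

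IFN for 24 h was followed by higher levels of 3 of the 9 genes: SLC6A9, SLC7A5 and SLC3A2. In this comparison 18.8% of all genes were called, 10% as higher, so a count of 3 in 9 is to be read against a broad response. SLC7A5 was at 10.2, 14.8 and 9.27 CPM in the 24 h control and 36.9, 37.7 and 24.3 CPM with IFN, with no overlap and a fitted log2 difference of 1.53 (SE 0.43, adjusted p = 0.0165, edgeR). SLC3A2 was at 21.3, 25.5 and 19.95 CPM and then 40.2, 44.3 and 31.9 CPM, a log2 fold change of 0.80 (adjusted p = 0.0154, edgeR). SLC6A9 was at 0.374, 0.974 and 0.463 CPM and then 1.82, 2.52 and 1.14 CPM, a log2 fold change of 1.60 (adjusted p = 0.0129, edgeR). In all of them the lowest IFN library was above the highest control library, as in 29.7% of all genes tested.

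SLC1A5 was also separated, at 29.8, 48.7 and 31.8 CPM in the control and 96.5, 98.8 and 68.3 CPM with IFN, but its log2 fold change of 1.26 did not pass the test (adjusted p = 0.059, edgeR). SLC38A1 was at 604.8, 542.9 and 594.7 CPM in the control and 461.2, 437.0 and 475.7 CPM with IFN, a log2 fold change of -0.34 (adjusted p = 0.0788, edgeR). SLC7A1, SLC1A4, SLC38A2 and SLC43A1 had log2 fold changes of 0.09, 0.05, -0.28 and 0.39, none of which was called.

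The GC difference of the libraries moved with IFN. It was -0.97, -0.38 and -0.79 in the 24 h control and 0.60, 0.90 and -0.12 with IFN, so the groups did not overlap, and the 4 genes highest with IFN have transcripts of 58.1% to 61.3% GC against 41.3% and 38.1% for SLC38A1 and SLC38A2. With GC trends removed the log2 fold change of SLC7A5 was 0.76 (adjusted p = 6.7e-05), of SLC6A9 0.93 (adjusted p = 0.012) and of SLC1A5 0.49 (adjusted p = 0.00222), all called by edgeR. SLC3A2 was then at 0.26 and not called (adjusted p = 0.0696), and SLC38A1 at -0.12 was called as lower (adjusted p = 0.0209). Thus 3 rose and 1 fell on that scale, where 32.6% of all genes were called. The part of the GC difference in the plain values was not tested. Leaving out control replicate 1, control replicate 3 or IFN replicate 2 left 0 of the 9 called in the fit of the counts, and leaving out IFN replicate 1 left 1. The share of all genes called in these fits is not given here, so these counts do not single out the transporters.

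**Figure D3:**
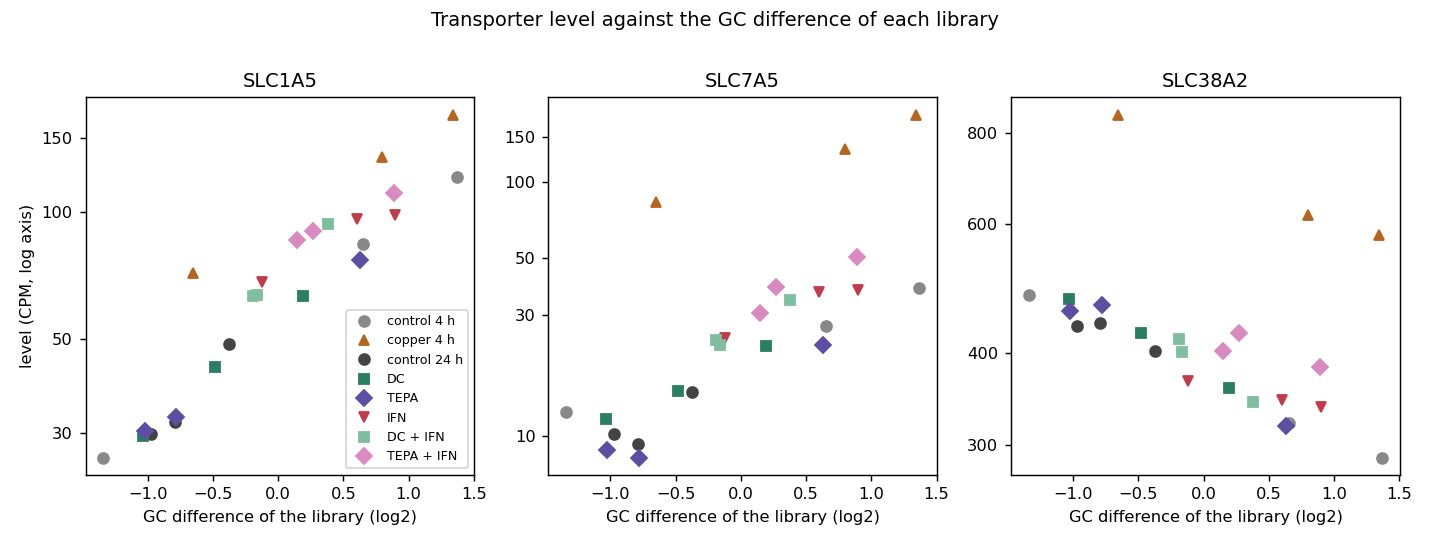
Level (CPM, log axis) of SLC1A5, SLC7A5 and SLC38A2 in each of the 24 libraries against the GC difference of the library (log2). In the 21 libraries without copper, the GC-rich SLC1A5 and SLC7A5 run upward and the GC-poor SLC38A2 downward along the axis; the copper libraries lie above the others at like GC difference.

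Replicate spread followed the same axis. The median coefficient of variation within groups was 33.1% for SLC1A5 and 30.1% for SLC7A5, and 9.04% and 7.47% once GC trends were removed. For SLC38A2 it went from 11.96% to 3.03%. SLC1A4, with a transcript of 52.6% GC, was the exception, at 5.39% before and 8.01% after. SLC7A1, of like GC content (52.7%), went from 9.60% to 4.47%.

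Neither chelator alone was followed by a called change in these genes. With DC 0 of 9 were called (0.0136% of all genes were), 0 at an unadjusted p under 0.05, and 0 with DESeq2. Log2 fold changes ran from -0.06 for SLC43A1 to 0.70 for SLC6A9, whose 95% interval was -0.21 to 1.62. With TEPA 0 of 9 were called by edgeR (1.06% of all genes), 0 at an unadjusted p under 0.05, and 0 with DESeq2. The values ran from -0.11 for SLC1A4 to 0.60 for SLC43A1 (interval -0.22 to 1.42). For SLC7A1 the intervals were -0.16 to 0.28 with DC and -0.27 to 0.17 with TEPA, and for SLC7A5, which spread more, they were -0.35 to 1.41 and -0.66 to 1.11. Removing GC trends added no call among the 9 for DC (0.0478% of all genes called) or for TEPA (9.44%). Outside the set, SLC7A11 fell by 1.19 on the log2 scale with TEPA (adjusted p = 0.00917, edgeR). With DC its log2 fold change was 0.88, not called (adjusted p = 1, edgeR), and 0.94 with GC trends removed, which was called (adjusted p = 0.00666, edgeR).

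IFN in the presence of TEPA was followed by higher levels of 5 of the 9 genes, SLC3A2, SLC1A4, SLC6A9, SLC7A5 and SLC7A1, where 14.2% of all genes were called and 7.28% as higher. SLC3A2 was at 20.5, 32.4 and 21.2 CPM with TEPA and 56.3, 57.2 and 47.4 CPM with TEPA and IFN, a fitted log2 difference of 1.12 (SE 0.22, adjusted p = 0.00138, edgeR). SLC7A5 was at 8.79, 22.9 and 8.21 CPM and then 38.5, 50.9 and 30.4 CPM, a log2 fold change of 1.58 (adjusted p = 0.0147, edgeR). SLC6A9 was at 0.662, 0.929 and 0.493 CPM and then 2.65, 3.24 and 1.49 CPM, a log2 fold change of 1.82 (adjusted p = 0.00498, edgeR). These did not overlap between the groups, and 14.4% of all genes tested were likewise higher without overlap. SLC1A4 was at 31.6, 34.2 and 27.9 CPM and then 46.1, 41.0 and 39.6 CPM, a smaller difference of 0.44 (adjusted p = 0.00129, edgeR), also without overlap. SLC7A1 at 0.34 (adjusted p = 0.034, edgeR) overlapped, with 122.5, 139.0 and 111.0 CPM against 161.7, 172.8 and 137.5 CPM. SLC1A5 was at 1.04, not called (adjusted p = 0.14, edgeR); with the replicate block in the 6 libraries compared it was called as well (adjusted p = 0.00545, edgeR).

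The GC difference was -1.02, 0.63 and -0.78 with TEPA and 0.27, 0.89 and 0.15 with TEPA and IFN, and its part in the plain values was not tested. With GC trends removed 7 of the 9 rose, where 29.2% of all genes were called. The log2 fold changes were then 1.17 for SLC7A5, 0.78 for SLC3A2, 1.40 for SLC6A9, 0.31 for SLC1A4 and 0.21 for SLC7A1, with SLC1A5 at 0.62 (adjusted p = 0.000216, edgeR). SLC38A2 changed sign, from -0.03 to 0.20 (adjusted p = 0.00454, edgeR).

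In the presence of DC, IFN was followed by no called change among the 9 by edgeR (9.82% of all genes were called), with 1 at an unadjusted p under 0.05, SLC3A2, and 0 by DESeq2. SLC7A5 had a log2 fold change of 0.71 (adjusted p = 0.391, edgeR) and SLC3A2 one of 0.49 (adjusted p = 0.209, edgeR). Once GC trends were removed SLC7A5, SLC3A2 and SLC1A5 rose by 0.45, 0.30 and 0.45 and SLC38A1 fell by 0.10 on the log2 scale, where 22.9% of all genes were called.

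Whether a chelator altered the response to IFN was tested as an interaction. None of the 9 was called for DC or for TEPA in the plain fit, where 0% of all genes were called. With GC trends removed none of the 9 was called either, where 0% of all genes were called for DC and 0.0614% for TEPA. The smallest unadjusted p was that of SLC1A4 for TEPA, at 0.00516 with a log2 difference of 0.38 (adjusted p = 1, edgeR), the 1 gene of 9 under 0.05; none of the 9 was under 0.05 for DC. For SLC7A5 the log2 difference was -0.82 with DC (95% interval -2.05 to 0.42) and 0.05 with TEPA (-1.18 to 1.29). Outside the set, SLC7A11 had a log2 difference of 1.325 with TEPA, not called in the plain fit. With GC trends removed it was 1.275 and called (adjusted p = 0.0198, edgeR). Each interaction sets the IFN response under 1 chelator against that of cells without a chelator. Whether the response of the 9 to IFN differed between TEPA and DC was not tested, so their calls are not shown to differ. Compared directly with IFN alone, DC with IFN gave 0 called of 9 (0.0205% of all genes; 0 at an unadjusted p under 0.05; also 0 with GC trends removed, 0.0682% of all genes) and TEPA with IFN 0 of 9 (1.9% of all genes; 2 at an unadjusted p under 0.05), and DESeq2 called 0 in both, as it did for the interactions. In that last comparison, removing GC trends left SLC3A2 at 0.49 (adjusted p = 0.00343), SLC38A2 at 0.22, SLC7A1 at 0.20 and SLC38A1 at 0.12 as called by edgeR, where 13.4% of all genes were called.

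**Figure D4:**
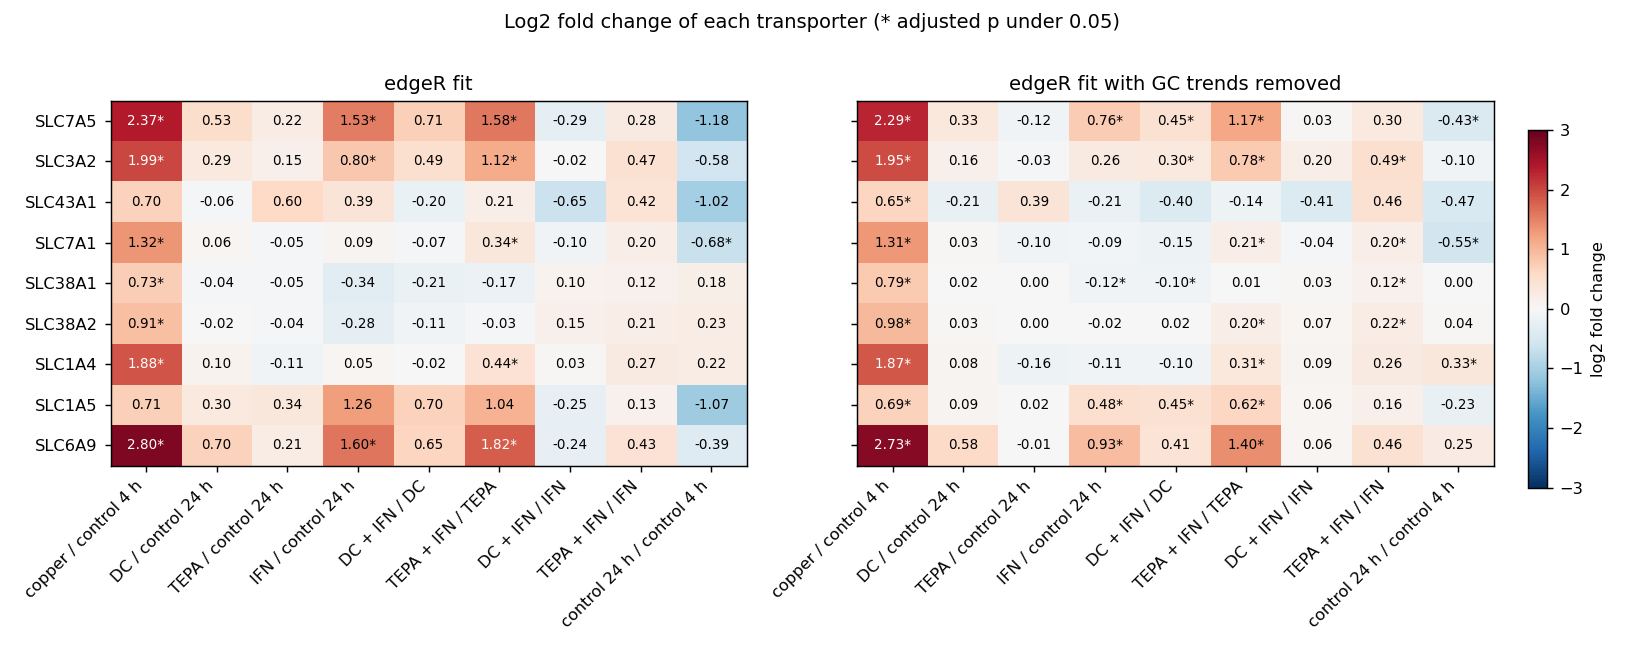
Log2 fold change of 9 transporters (rows) in 9 comparisons (columns), from the edgeR fit on the left and with GC trends removed on the right; red is higher, blue is lower, and an asterisk marks an adjusted p under 0.05. The copper column is positive for every gene on both scales, and the columns for IFN over the 24 h control and for each chelator with IFN over that chelator alone are paler on the right for SLC7A5, SLC3A2, SLC1A5 and SLC6A9.

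**Figure D5:**
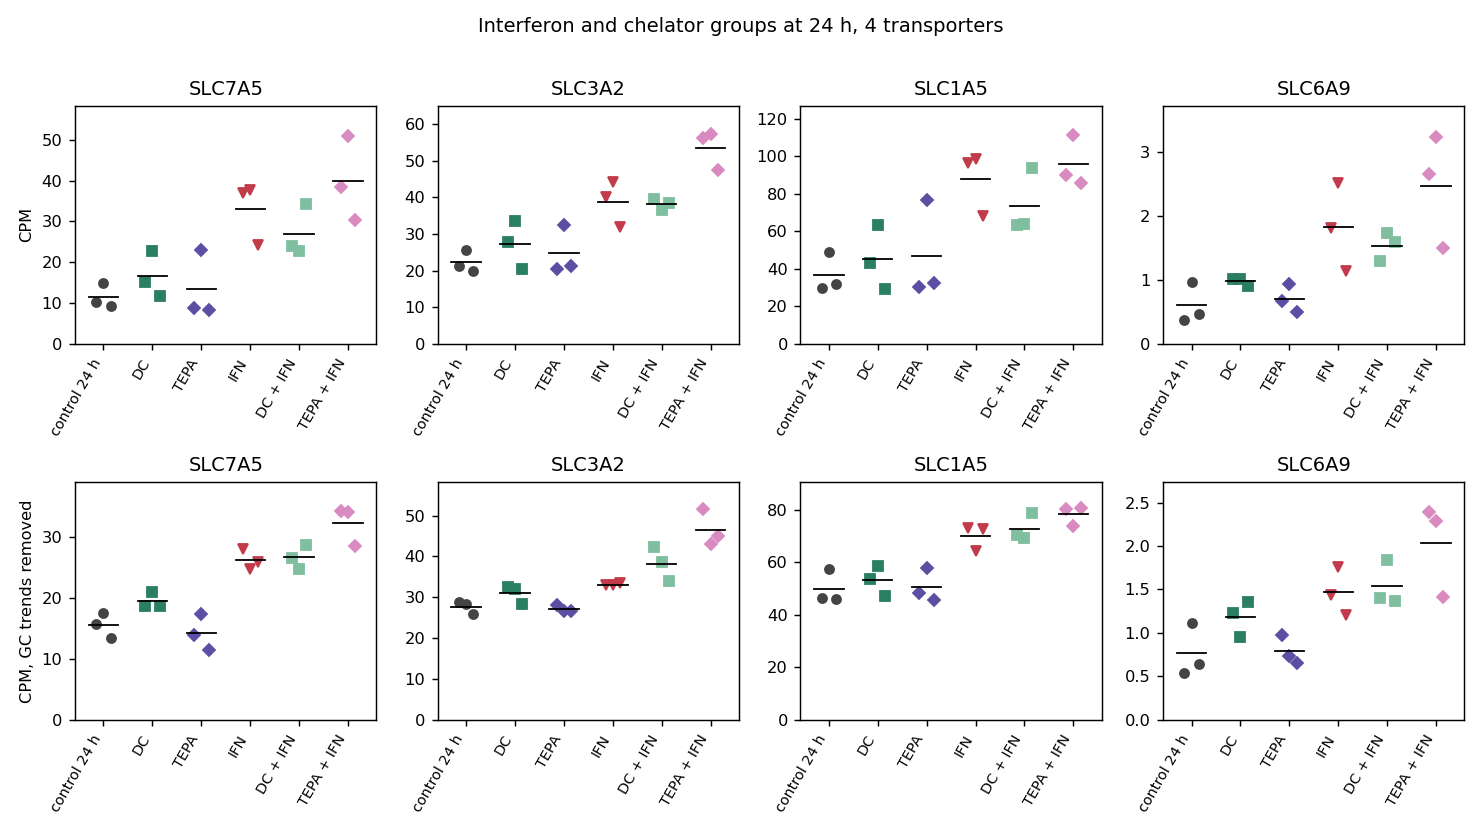
SLC7A5, SLC3A2, SLC1A5 and SLC6A9 in the 24 h groups, as CPM above and as CPM with GC trends removed below; points are libraries and bars are means of 3. With GC trends removed, the spread of SLC1A5 within a group narrows, and the means of the IFN groups are above that of the 24 h control for all 4 genes. These are the genes of largest log2 fold change with IFN alone, and SLC3A2 is not called on that scale (adjusted p = 0.0696, edgeR). The tested transporters not drawn run from -0.207 for SLC43A1 to -0.022 for SLC38A2 with IFN alone on that scale.

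With IFN alone, 7 of 20 genes of the eIF2 and ATF4 network rose and none fell, with a median log2 fold change of 0.22, where 18.8% of all genes were called and 10% as higher. Without GC trends 7 rose and 2 fell, where 32.6% of all genes were called. They were led by EIF2AK2 (PKR, an interferon-induced kinase) at a log2 fold change of 2.17 and ATF3 at 2.04. ATF4, chosen after its values were seen, was at 0.55 (adjusted p = 0.000932, edgeR) and at 0.12, not called, with GC trends removed. Of 18 synthesis genes 4 rose and 1 fell, led by argininosuccinate synthase ASS1, which makes the precursor of arginine, at 4.67 and by GPT2 at 0.87. Of 10 other plasma membrane transporters, the arginine carrier SLC7A2 rose by 0.90 and SLC16A10 and SLC1A1 fell by 0.71 and 0.93 on the log2 scale. After removal of GC trends, 7 of the synthesis genes rose and 1 fell, and 2 of these transporters rose and 3 fell.

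Untreated cells differed between the 2 times in 1 of the 9 genes, where 9.69% of all genes were called and 3.79% as lower. In 7.76% of all genes tested the 24 h libraries lay below the 4 h libraries without overlap. SLC7A1 was at 183.4, 203.6 and 229.5 CPM at 4 h and 124.7, 134.0 and 126.5 CPM at 24 h, lower without overlap, and fell by 0.68 on the log2 scale (SE 0.11, adjusted p = 0.000523, edgeR). It fell by 0.55 with GC trends removed, where SLC7A5 also fell (by 0.43) and SLC1A4 rose (by 0.33), with 26.6% of all genes called. Without 4 h control replicate 1, the library of lowest GC difference, 7 of the 9 were called. That fit called 7375 of all genes, against 1420 in the main fit, so the count is to be read against that rise.

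For each transporter, the 3 genes of closest pattern over the 24 libraries were found by Pearson correlation of log2 CPM, as a description: the libraries share the groups and the GC trends. SLC3A2 lay closest to SARS (r = 0.982), GPT2 (0.978) and CHAC1 (0.971), and SLC7A5 to PACSIN2 (0.976), PCK2 (0.975) and GPT2 (0.971). SLC6A9 lay closest to CARS (0.957), JDP2 (0.951) and AARS (0.948), of which CARS and AARS, like SARS, encode aminoacyl-tRNA synthetases. SLC1A4 lay closest to ULBP1 (0.98), XBP1 (0.968) and PSAT1 (0.965), and SLC38A2 to BCAT1 (0.961), ZNF419 (0.952) and SGPL1 (0.949). For SLC1A5 the closest were RRP12 (0.986), RING1 (0.983) and WDR74 (0.983), with transcripts of 55.4% to 61.6% GC, close to its own 61.3%. SLC7A1 lay closest to GS1-124K5.11 (0.973), ANKRD11 (0.968) and ZBTB2 (0.961), and SLC38A1 to PYROXD1 (0.963), ARRDC4 (0.96) and ZDBF2 (0.96). Those of SLC43A1 were HNRNPUL1 (0.943), RAPGEFL1 (0.937) and RALY (0.93).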

How the data were processed

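The authors deposited whole-number read counts per gene symbol, not normalized. STAR 2.5a, RSEM 1.2.31 and build hg38 are named, per the submitters' processing notes. Annotation release and strand setting are not given in the sources used here. In R 4.3.3, edgeR 4.0.16 kept 14654 genes (filterByExpr, minimum count 10), scaled libraries by TMM and fitted 1 mean per group to all 24 libraries (16 residual degrees of freedom, common coefficient of variation 0.207). Adjusted p-values are Benjamini-Hochberg over all genes tested. CPM use the scaled totals. GC and length come from GENCODE 29 transcripts (93.7% of tested genes had a GC value); trends were removed as offsets from a lowess of span 0.3, and the error of the trends is not in the standard errors. On simulated copper data of 14530 genes carrying the GC trends of these libraries, the plain fit recovered 41% of 2-fold and 84.7% of 4-fold changes with 0.8% false calls, and the fit with trends removed 58% and 90.8% with 5.16%. The simulated trends came from the same lowess, and the simulated spread from the counts before removal. The simulation therefore does not show how the fits perform on the real libraries. DESeq2 1.42.0 and limma 3.58.1 were alternatives. Same-numbered libraries deviated together (every correlation over 0.1) for copper (0.866, 0.35 and 0.817), DC, TEPA, and TEPA with IFN against TEPA. In no comparison did every library correlate best with its same-numbered partner, and the labels do not state a pairing. The members and lists were chosen with earlier results of these data known. From each list, the called genes of smallest p were named (up to 4 for copper, up to 2 elsewhere). Intervals are 95%.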

Additional observations from a re-analysis of the deposited data

How the results depend on the processing

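The alternatives of single transporters cover only the comparisons in which a gene was called in the plain fit or with GC trends removed. Of these 489 values, 407 kept their direction and side of the threshold, 29 lost a call, 49 gained one and 4 changed sign, each of them SLC38A2 for TEPA with IFN against TEPA: 0.195 with GC trends removed, with or without the replicate block, 0.018 without TEPA replicate 1 and 0.035 without TEPA replicate 3; fits that left out 1 library ran from -0.2 to 0.035. Values not called in either fit could also change sign with GC trends removed, as for SLC43A1 with IFN, from 0.39 to -0.21, and SLC7A5 with TEPA, from 0.22 to -0.12. Called transporters under copper were 7 in every fit that left out 1 library, and 2 with only the 6 libraries compared. For IFN the count of 3 became 5 with DESeq2, 5 with the replicate block, 5 with GC trends removed and the replicate block, 6 with only the libraries compared and 6 with the replicate block in those, and ran from 0 to 3 with 1 library left out. For TEPA with IFN against IFN the count of 0 became 4 with GC trends removed, 4 with the replicate block as well, and 6 with the replicate block in the libraries compared. For DC with IFN against DC it became 4 with GC trends removed and 5 with the replicate block as well. For TEPA with IFN against TEPA 5 became 2 with only the libraries compared and 6 with the replicate block in those, and ran from 3 to 6 with 1 library left out. For 24 h against 4 h controls 1 became 2 with DESeq2, 2 with the replicate block, 3 with GC trends removed (3 with the block as well), 0 with only the libraries compared (0 with the block as well), and ran from 1 to 7 with 1 library left out. The share of all genes called moved too. With GC trends removed it went from 18.8% to 32.6% for IFN and from 1.9% to 13.4% for TEPA with IFN against IFN. It went from 9.82% to 22.9% for DC with IFN against DC and from 9.69% to 26.6% for 24 h against 4 h controls. The shifts among the transporters are to be read against those shares, and their cause was not tested. For alternatives whose total over all genes is not given, the counts do not show a shift particular to the transporters. Over all genes, copper calls numbered 857, and 3134 with GC trends removed, 3346 with the block as well, 61 with only the libraries compared and 2547 with the replicate block in those; leaving out both libraries numbered 1, an alternative chosen after seeing the data, they were 744. Calls over all genes went from 2761 to 4775 for IFN and from 155 to 1383 for TEPA with GC trends removed, and from 1420 to 7375 for time without 4 h control replicate 1. Same-numbered libraries did not deviate together for IFN, the comparisons of IFN groups with each other, DC with IFN against DC, or time. The log2 ratios of SLC7A5 to SLC3A2 without scaling by length were -0.452, -0.043, -0.983, -0.75, -1.03, -0.25, -0.527 and -0.453 in the 4 h control, copper, 24 h control, DC, TEPA, IFN, DC with IFN and TEPA with IFN.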
